A study of Mus musculus with 4 samples.

Results

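The transcripts described here belong to 10 mouse genes of the p53 response and of the Gadd45 family, measured on microarrays of brainstem/cerebellum and spinal cord. The p53 targets were Cdkn1a, Mdm2, Bbc3, Pmaip1, Bax, Ccng1 and Zmat3, and the Gadd45 genes were Gadd45a, Gadd45b and Gadd45g. The genes were chosen by symbol, and every probe whose gene name on the array was one of these symbols was taken. This gave 15 of 56605 probes, or 10 of 27195 named genes. The 4 groups compared were all from mice aged 24 weeks on a background of C57BL/6, 129 and C3H: transgenic brainstem/cerebellum, wild-type brainstem/cerebellum, transgenic spinal cord and wild-type spinal cord. The submitters call the transgenic animals MSA Tg mice, a name that refers to multiple system atrophy, a disease with alpha-synuclein deposits in oligodendrocytes. Sample titles begin with PLP, but the labels name neither the transgene nor its promoter, nor whether a sample came from 1 animal or from a pool. Each group was measured on 1 array, so the values describe these 4 arrays, groups could not be tested against each other and p-values are absent.

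The p53 protein is a transcription factor that is stabilised after DNA damage and other stress. Its targets stop the cell cycle, start apoptosis, or feed back on p53 itself by directing its degradation. The Gadd45 proteins are small stress-induced proteins that bind the kinase MEKK4 and the replication clamp PCNA, and they act in growth arrest, DNA repair and signalling to p38 and JNK kinases. Several of these genes also respond to signals other than p53. Cdkn1a is induced by glucocorticoids, Gadd45b by NF-kappaB and TGF-beta, and Gadd45g by cytokines.

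Sequences before the transcription starts are shown first because Cdkn1a, the gene with the largest difference, has probes on 2 sides of an internal start. RefSeq (GRCm38.p6) lists start windows for 8 of the 10 genes, 11 windows in all. The 250 bases before a start are printed 5′ to 3′ on the gene's strand. For Cdkn1a and Ccng1, capitals mark a match to the p53 consensus, a pair of adjoining half-sites, with at most 1 mismatch on either strand. For Gadd45b and Gadd45g, capitals mark TATAAA.
Cdkn1a, upstream start (chr17:29090729-29090978, plus strand): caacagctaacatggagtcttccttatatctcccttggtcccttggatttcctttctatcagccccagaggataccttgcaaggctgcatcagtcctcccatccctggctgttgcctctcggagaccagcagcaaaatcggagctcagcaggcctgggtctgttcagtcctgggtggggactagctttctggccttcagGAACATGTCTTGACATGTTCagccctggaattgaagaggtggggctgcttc
Cdkn1a, downstream start (chr17:29093519-29093768, plus strand): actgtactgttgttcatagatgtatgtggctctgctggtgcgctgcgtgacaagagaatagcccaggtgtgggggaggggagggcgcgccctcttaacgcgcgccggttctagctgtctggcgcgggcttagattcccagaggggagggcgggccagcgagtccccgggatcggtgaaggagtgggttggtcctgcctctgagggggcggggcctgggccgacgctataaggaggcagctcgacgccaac
Ccng1 (chr11:40755287-40755536, minus strand): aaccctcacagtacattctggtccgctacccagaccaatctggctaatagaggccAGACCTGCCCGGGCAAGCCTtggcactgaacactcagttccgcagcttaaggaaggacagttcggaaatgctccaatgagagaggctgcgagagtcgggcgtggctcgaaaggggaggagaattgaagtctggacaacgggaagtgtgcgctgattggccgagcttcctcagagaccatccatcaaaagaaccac
Gadd45b (chr10:80929841-80930090, plus strand): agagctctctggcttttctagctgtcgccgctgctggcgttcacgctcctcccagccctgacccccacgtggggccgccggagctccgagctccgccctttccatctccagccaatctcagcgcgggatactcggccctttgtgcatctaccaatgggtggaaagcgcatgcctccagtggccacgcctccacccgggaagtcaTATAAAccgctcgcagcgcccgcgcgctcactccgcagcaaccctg
Gadd45g (chr13:51846425-51846674, plus strand): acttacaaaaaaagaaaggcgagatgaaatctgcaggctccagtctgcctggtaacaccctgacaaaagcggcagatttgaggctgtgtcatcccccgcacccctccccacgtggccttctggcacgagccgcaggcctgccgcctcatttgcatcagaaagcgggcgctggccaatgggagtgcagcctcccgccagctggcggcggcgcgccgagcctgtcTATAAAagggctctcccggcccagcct

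The match in the upstream Cdkn1a window began 51 bases before the start, and the one in Ccng1 began 195 bases before it. These were 2 of the 11 windows searched, each taken with the 50 bases after the start. Of all 32851 windows of this length, 29 held such a match, or 0.0883%. The spelled core CATGNNNNNNCATG, which lies inside the Cdkn1a match and reads the same on both strands, occurred in 0.712% of all windows and in 1 of the 11. TATAAA, searched on both strands, was present in the windows of Gadd45b and Gadd45g and in 13.6% of all windows. A match describes the letters in the window and shows neither binding nor use of the site.

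Levels below are log2 values of the processed spot intensity minus the 75th percentile of the array, and differences are log2, transgenic minus wild type, unless stated otherwise. All 10 genes were well above background on all 4 arrays at their brightest probe, which stands for the gene. The only error the files hold is technical. Among 300 probes with 10 spots on each array, differences between 2 spots had an SD of 0.09 to 0.12 at the levels of these brightest probes. The SD was 0.71 for the dimmest probes, where it rests on 7 probe and array combinations. The value of 0.09 rests on 1156 such combinations, that of 0.10 on 25 and that of 0.12 on 8. This technical error leaves out all differences between animals, extractions and hybridisations. The wild-type spinal cord sample was hybridised on a slide of its own, so slide and genotype cannot be told apart in spinal cord, while both brainstem/cerebellum samples and the transgenic spinal cord shared the other slide. Between 59.2% and 64% of spots on an array were well above background and none was saturated. The cerebellar marker Gabra6 was not well above background on either spinal cord array, and Hoxc8, Hoxc9, Hoxc10 and Hoxd10 were not on either brainstem/cerebellum array. The other cerebellar markers were detected in both spinal cord samples at lower levels, with a summed level of 9.9 in transgenic and 14.8 in wild-type spinal cord, against 251 in transgenic and 248 in wild-type brainstem/cerebellum. Of the other Hox genes, Hoxa7, Hoxa9 and Hoxb8 were above background in both brainstem/cerebellum samples and Hoxd8 in the transgenic one. The summed level of the Hox genes was 18.4 in transgenic and 31.3 in wild-type spinal cord, against 0.296 in transgenic and 0.24 in wild-type brainstem/cerebellum, on the linear scale in units of the 75th percentile.

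The first comparison asks how the transgenic spinal cord differs from the wild-type one. In spinal cord 6 of the 10 genes were at least 2-fold higher on the transgenic array, and 1 was 2-fold lower. Cdkn1a had the largest difference at 2.20, followed by Gadd45b at 1.86, Bbc3 at 1.43 and Pmaip1 at 1.35, with Gadd45g at 1.16 and Gadd45a at 1.12. Zmat3 was the lower one at -1.01. The background was 8.48% of 17244 measurable genes past 2-fold upward and 6.42% past it downward. The median of the 10 genes was 1.14, against -0.05 for all genes. Scaled on 7 spike-in control probes instead, the median of all genes moved to -0.44 and that of the 10 genes to 0.75. Then 3 of the 10 were at least 2-fold higher, Cdkn1a at 1.81, Gadd45b at 1.47 and Bbc3 at 1.04, against 5.1% of all genes under that scaling.

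The same comparison in brainstem/cerebellum gave smaller differences. Cdkn1a, at 1.17, was the 1 gene of the 10 that was at least 2-fold higher on the transgenic array, and none was 2-fold lower. With the mean of its 3 probes, of which 2 were not above background on the wild-type array, Cdkn1a stood at 0.87 and did not pass 2-fold, and under median scaling it stood at the 2-fold threshold. The background here was 2.64% of 16948 measurable genes past 2-fold upward and 0.313% past it downward. Gadd45b at 0.66 and Pmaip1 at 0.54 came next, and Zmat3 was again the lowest at -0.30. The median of the 10 was 0.29, against -0.07 for all genes. At a threshold of 1.5-fold, 2 of the 10 passed upward in brainstem/cerebellum, against 6.21% of all genes, and 8 of the 10 did in spinal cord, against 16.2%.

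**Figure D1:**
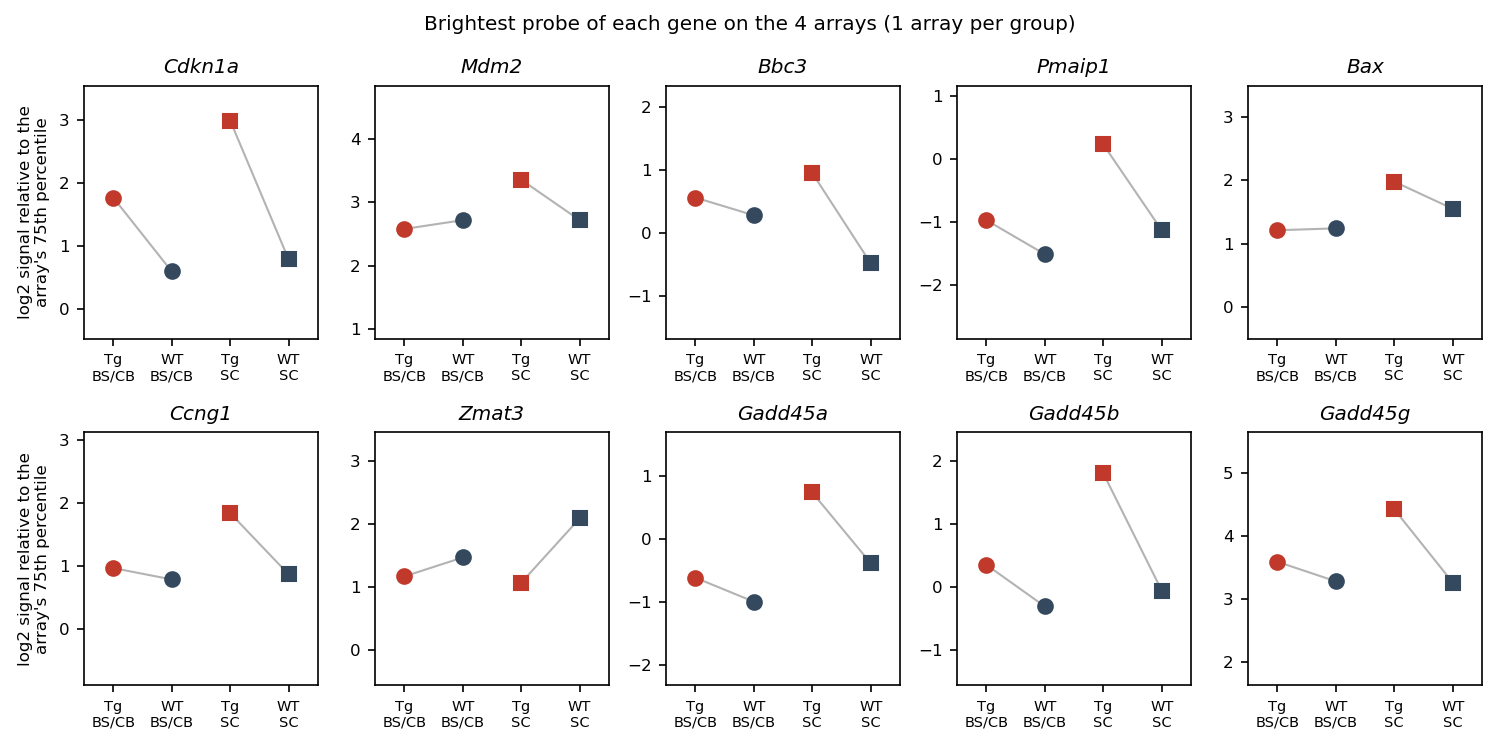
Levels of the brightest probe of each gene (y axis, log2 signal relative to the 75th percentile of the array) on the transgenic (Tg, red) and wild-type (WT, dark) arrays of brainstem/cerebellum (BS/CB, circles) and spinal cord (SC, squares), 1 array per point, with a line joining both genotypes of a tissue. The y axes span the same range but start at different levels. The transgenic spinal cord array is highest for 9 of the 10 genes, with Zmat3 as the exception, and for 29.3% of 16487 genes above background on all 4 arrays.

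Among the genes that hold back the cell cycle, Cdkn1a encodes p21, an inhibitor of cyclin-dependent kinases. Its downstream probe (chromosome 17, 29237377 to 29237436 in mm9, which the array's annotation uses) had levels of 1.77 in transgenic against 0.60 in wild-type brainstem/cerebellum, and 2.99 in transgenic against 0.79 in wild-type spinal cord. Both transgenic levels lay above both wild-type levels. The differences correspond to 2.25-fold in brainstem/cerebellum and 4.59-fold in spinal cord. Ranked from the largest difference down, Cdkn1a was number 323 of 16948 genes in brainstem/cerebellum and number 379 of 17244 in spinal cord.

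Another 2 Cdkn1a probes lie further upstream, and both were dim. The upstream probe (29227986 to 29228045 in mm9) lists 1 RefSeq transcript of the gene, while the downstream probe lists 2. It was well above background on the transgenic spinal cord array alone, where its signal was 42.4, against 2.8 in wild-type spinal cord. In brainstem/cerebellum its signals were 2.93 in transgenic and 4.83 in wild-type mice. The lowest signals called above background on these arrays were between 10.5 and 12.5. The upstream probe was thus at least 5.62-fold higher in transgenic than in wild-type spinal cord, a bound set by the lowest level called above background on the wild-type array. It lies 9450 bases from the far end of the downstream probe in mm9. In GRCm38.p6 the gene extends 9743 bases beyond the upstream start and 6953 bases beyond the downstream one, so by these lengths, which come from different builds, the upstream probe lies before the downstream start.

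A middle probe (29235299 to 29235358 in mm9), which lists an Ensembl transcript and no RefSeq one, was above background on both transgenic arrays and on neither wild-type array. Its signals were 24.9 in transgenic and 5.11 in wild-type brainstem/cerebellum, and 51.2 in transgenic and 10.1 in wild-type spinal cord. As bounds, this is at least 2.04-fold higher in brainstem/cerebellum and at least 6.78-fold higher in spinal cord. All 3 probes were brighter in transgenic than in wild-type spinal cord, and the upstream one was not measured above background in either brainstem/cerebellum sample.

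**Figure D2:**
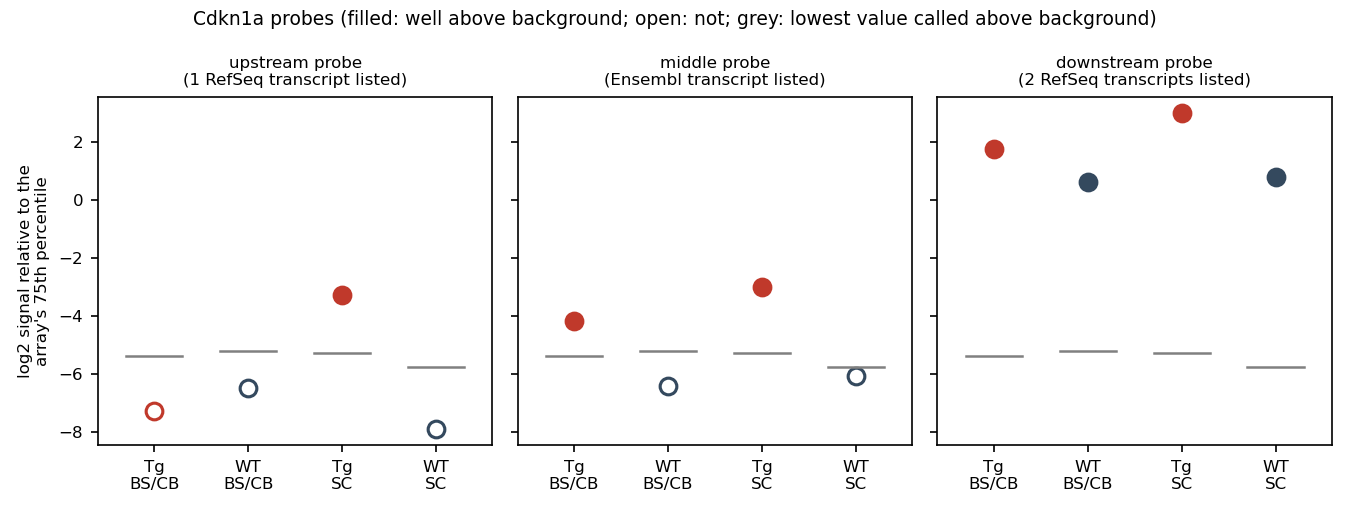
Levels of the 3 Cdkn1a probes (y axis, log2 signal relative to the 75th percentile of the array) on the transgenic (Tg, red) and wild-type (WT, dark) arrays of brainstem/cerebellum (BS/CB) and spinal cord (SC), ordered by position along the gene. Filled points are well above background, open points are not, and grey bars mark the lowest level called above background on each array. The upstream probe is filled on the transgenic spinal cord array alone, the middle probe on both transgenic arrays and the downstream probe on all 4.

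Ccng1 encodes cyclin G1, a p53 target that brings a phosphatase to the Mdm2 protein. Its probe (chromosome 11, 40562427 to 40562486 in mm9) had levels of 0.97 in transgenic against 0.79 in wild-type brainstem/cerebellum, and 1.84 in transgenic against 0.87 in wild-type spinal cord. The difference was 0.18 in brainstem/cerebellum. It was 0.97 in spinal cord, or 1.95-fold, just short of 2-fold, and it passed 2-fold with quantile normalization at 1.01 and with the authors' values at 1.03. The transgenic spinal cord stood apart, and the other 3 arrays lay close together.

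The genes of apoptosis differed among themselves. Bbc3 encodes Puma and Pmaip1 encodes Noxa, proteins that hold only the BH3 motif of the Bcl-2 family and neutralise its survival members, while Bax encodes a pore former of the mitochondrial outer membrane. Bbc3 (chromosome 7, 16903403 to 16903462 in mm9) had levels of 0.56 in transgenic against 0.28 in wild-type brainstem/cerebellum, and 0.95 in transgenic against -0.48 in wild-type spinal cord. Its wild-type spinal cord level was the lowest of the 4, and the difference there was 1.43, or 2.70-fold, against 0.27 in brainstem/cerebellum. In wild-type mice Bbc3 was lower in spinal cord than in brainstem/cerebellum by a log2 difference of -0.76, and this low value is on the array with a slide of its own.

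Pmaip1 (chromosome 18, 66625088 to 66625147 in mm9) had levels of -0.97 in transgenic against -1.51 in wild-type brainstem/cerebellum, and 0.23 in transgenic against -1.13 in wild-type spinal cord. Both transgenic levels were above both wild-type levels, and the genotype difference was 1.46-fold in brainstem/cerebellum and 2.56-fold in spinal cord. Bax had smaller differences at both of its probes. Its brighter probe (chromosome 7, 52717122 to 52717181 in mm9) had levels of 1.21 in transgenic against 1.24 in wild-type brainstem/cerebellum, and 1.98 in transgenic against 1.55 in wild-type spinal cord. Its other probe, which spans 52721469 to 52721624, differed by 0.00 in brainstem/cerebellum and by 0.78 in spinal cord, against -0.04 and 0.43 at the brighter one. Neither Bax probe reached 2-fold, and the brainstem/cerebellum differences were within the technical error of 0.10.

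The remaining p53 targets act on p53 or on RNA. Mdm2 encodes the ubiquitin ligase that marks p53 for degradation, and Zmat3 encodes a zinc finger protein that binds RNA. The brighter Mdm2 probe (chromosome 10, 117126010 to 117126069 in mm9) had levels of 2.58 in transgenic against 2.72 in wild-type brainstem/cerebellum, and 3.36 in transgenic against 2.72 in wild-type spinal cord. It differed by -0.14 in brainstem/cerebellum and by 0.64 in spinal cord. The dimmer probe, whose target spans 117139375 to 117142253, differed by 0.37 and 1.32, so the probes disagreed on the sign in brainstem/cerebellum and on passing 2-fold in spinal cord.

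In spinal cord Zmat3 differed in the opposite direction to the other 9 genes (chromosome 3, 32233831 to 32233890 in mm9). Its levels were 1.17 in transgenic against 1.47 in wild-type brainstem/cerebellum, and 1.07 in transgenic against 2.09 in wild-type spinal cord. Both wild-type levels lay above both transgenic levels. The wild-type spinal cord level, on the array with a slide of its own, was the highest, by 0.62 over wild-type brainstem/cerebellum. The difference of -1.01 in spinal cord was at the 2-fold threshold, and it was -0.89 with normexp background correction and -1.41 with spike-in scaling.

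All 3 Gadd45 genes were higher on the transgenic array in both tissues, as were 25.7% of 16487 genes above background on all 4 arrays, and for the 3 genes this held under each of the 6 alternative scalings, corrections and probe rules tried. In spinal cord all 3 were at least 2-fold higher, against 8.48% of all genes, and in brainstem/cerebellum none was, against 2.64%. With spike-in scaling Gadd45b alone passed 2-fold in spinal cord, at 1.47, while Gadd45g stood at 0.77 and Gadd45a at 0.73. Gadd45a, a direct p53 target, had levels of -0.61 in transgenic against -0.99 in wild-type brainstem/cerebellum, and 0.74 in transgenic against -0.38 in wild-type spinal cord (chromosome 6, 66985376 to 66985435 in mm9). Its difference was 0.38 in brainstem/cerebellum and 1.12 in spinal cord. A second Gadd45a probe, 66986425 to 66986484, was not well above background on any array, and the mean of both probes differed by 0.40 in spinal cord.

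Gadd45b had the second largest spinal cord difference of the 10 genes. Its levels were 0.35 in transgenic against -0.31 in wild-type brainstem/cerebellum, and 1.80 in transgenic against -0.06 in wild-type spinal cord (chromosome 10, 80394367 to 80394426 in mm9). This is 1.58-fold in brainstem/cerebellum and 3.64-fold in spinal cord, and in each tissue the transgenic level lay above both wild-type levels. Gadd45g had levels of 3.59 in transgenic against 3.28 in wild-type brainstem/cerebellum, and 4.42 in transgenic against 3.26 in wild-type spinal cord (chromosome 13, 51943733 to 51943792 in mm9). Its wild-type tissues differed by -0.02, within the technical error of 0.09, and its genotype difference was 0.31 in brainstem/cerebellum and 1.16 in spinal cord.

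**Figure D3:**
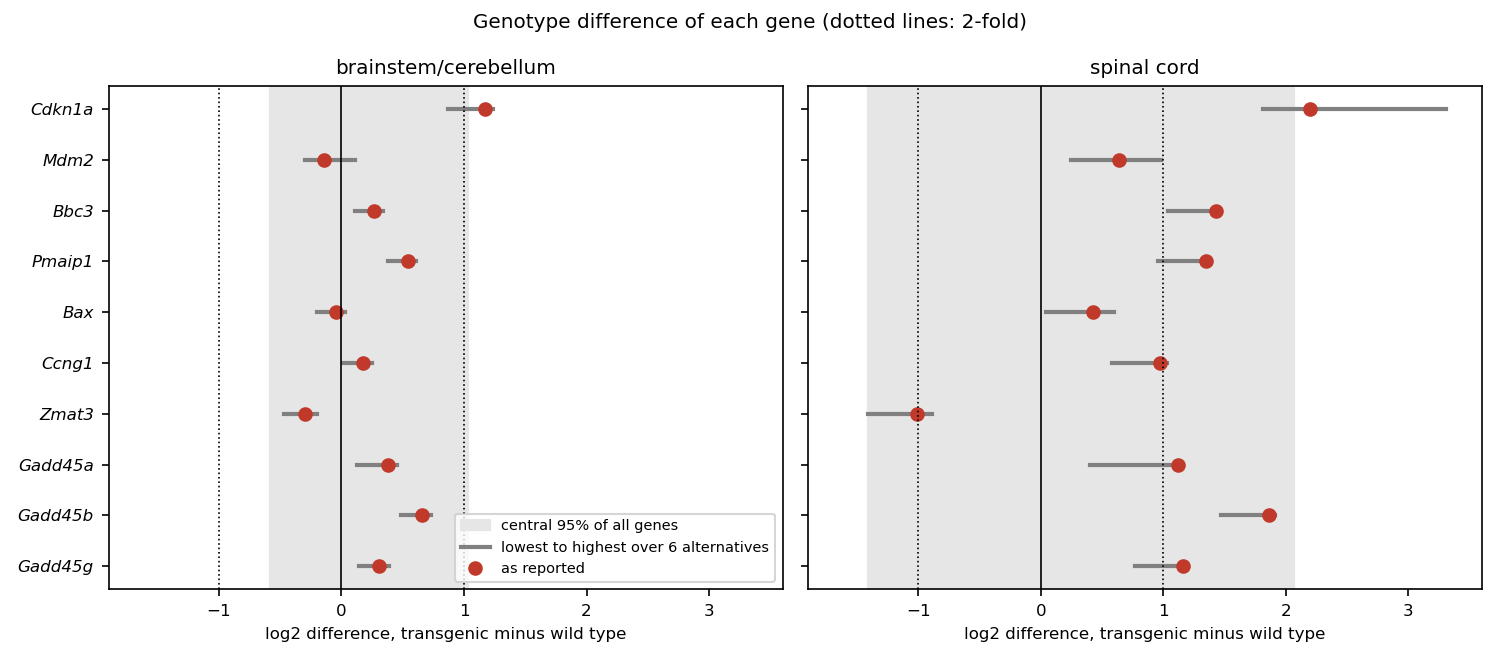
Log2 difference, transgenic minus wild type, of each gene (x axis) in brainstem/cerebellum and in spinal cord. Red points are the reported values, grey lines run between the lowest and the highest value over 6 alternatives and the reported one, the shaded band holds the central 95% of all genes, and dotted lines mark 2-fold. In spinal cord 9 of the 10 genes lie above 0 over the whole line, while 46.6% of 17244 measurable genes were above 0 as reported. Cdkn1a is the 1 reported value outside the band in each tissue.

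A further comparison sets the tissues against each other. In transgenic mice, where both arrays share a slide, 4 of the 10 genes were at least 2-fold higher in spinal cord than in brainstem/cerebellum, against 10% of all genes. These were Gadd45b at 1.46, Gadd45a at 1.35, Cdkn1a at 1.22 and Pmaip1 at 1.19, in log2 differences of spinal cord minus brainstem/cerebellum. In wild-type mice, whose arrays lie on 2 slides, none of the 10 was 2-fold higher, against 6.58% of all genes, and the values ran between -0.76 for Bbc3 and 0.62 for Zmat3. No gene of the 10 was 2-fold lower in spinal cord in either genotype, against 6.24% of all genes in transgenic and 4.35% in wild-type mice.

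The signed genotype difference, transgenic minus wild type, was higher in spinal cord than in brainstem/cerebellum for 9 of the 10 genes, against 51.7% of 16487 genes above background on all 4 arrays. The excess was largest for Gadd45b at 1.21, Bbc3 at 1.16 and Cdkn1a at 1.03, and it was -0.71 for Zmat3, whose difference was also larger in size in spinal cord but below 0 in both tissues. This difference of differences was not tested, and it shares the slide of the wild-type spinal cord array with the comparison above. Among all genes its central 95% lay between -1.36 and 1.24, so none of the 10 was outside that range.

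The order of the arrays was alike for several genes. Cdkn1a, Pmaip1, Ccng1 and Gadd45b ran, high to low, in the order transgenic spinal cord, transgenic brainstem/cerebellum, wild-type spinal cord and wild-type brainstem/cerebellum, an order shown by 5.87% of all genes. Neighbours in that order were close for Ccng1, with 0.08 between the wild-type tissues, within the technical error of 0.10. Its transgenic brainstem/cerebellum level of 0.97 was next to the wild-type spinal cord level of 0.87. The genotypes in brainstem/cerebellum, which are not neighbours in that order, differed by 0.18. Cdkn1a had a wild-type tissue difference of 0.19. The 5 genes whose 4 levels, centred on their mean, lay nearest to those of Cdkn1a were S100a3, Urah, Ccna2, Col5a3 and Sbno2, at Euclidean distances of 0.102, 0.103, 0.148, 0.168 and 0.186. With 4 arrays and 16486 genes compared, such closeness is a description only. Ccna2, the gene of cyclin A2, differed by 0.97 in brainstem/cerebellum and 2.24 in spinal cord.

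Other genes of the pathway were taken from 6 lists. Over all genes, 8.48% passed 2-fold upward and 6.42% downward in spinal cord, and 2.64% and 0.313% did in brainstem/cerebellum. The pathway and marker counts below are to be read beside these shares. Among 25 other p53 targets that could be measured in both spinal cords, 8 passed 2-fold upward in the transgenic sample and none downward, with a median of 0.54. Gtse1, a further target, was at least 3.44-fold higher as a bound. In brainstem/cerebellum 2 of 23 were higher and none lower, with a median of 0.08. Gdf15, a secreted stress cytokine that other pathways also induce, stood at 2.93 in brainstem/cerebellum and 6.36 in spinal cord. Tnfrsf10b, a death receptor, stood at 1.24 and 2.32, and the antiproliferative gene Btg2 at 0.48 and 1.81. Eda2r, a receptor of the TNF family, stood at 1.80 in spinal cord and was not above background on either brainstem/cerebellum array. The wild-type levels of Gdf15 and Eda2r in spinal cord, -4.45 and -4.78, and of Tnfrsf10b in brainstem/cerebellum, -4.55, were dim. At such levels the technical SD was 0.71.

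The transcripts of p53 and its regulators differed less. Of 14 such genes measured in spinal cord, 1 was higher and 1 lower, with a median of 0.08, and in brainstem/cerebellum none of 13 passed 2-fold, with a median of -0.07. The higher one was Cdkn2a, whose locus encodes p19Arf, an inhibitor of Mdm2, and the kinase inhibitor p16Ink4a. It had levels of -0.95 in transgenic against -5.39 in wild-type spinal cord, a difference of 4.44, and a bound of at least 1.69-fold in brainstem/cerebellum, where it was above background on the transgenic array alone. Its wild-type spinal cord level lay near the lowest called above background on that array, -5.76, and the technical SD of such dim probes was 0.71. The lower one was Trp73, a p53 relative, at -1.53 in spinal cord and -0.07 in brainstem/cerebellum. Chek1 and Chek2, checkpoint kinases of the DNA damage response, stood at 0.77 and 0.70 in spinal cord, though the other Chek1 probe gave -0.17. Other probes passed 2-fold in spinal cord for Trp63, at -1.83 and -1.38, Trp53bp1, down to -1.15, and Atr, up to 1.3. The brightest probes of these genes, which were counted, stood at 0.47, -0.21 and 0.33. Trp53 itself, named after its values were seen, stood at 0.42 in brainstem/cerebellum and 0.28 in spinal cord.

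Among the other cyclin-dependent kinase inhibitors, 3 of 6 passed 2-fold upward in spinal cord and none downward, with a median of 0.84. They were Cdkn2a, Cdkn2c at 2.06 and Cdkn2b at 1.33, and both of the last named had a second probe at 1.91 and 1.47. Cdkn1c stood at 0.35. None of 5 passed 2-fold in brainstem/cerebellum, where the median was 0.24.

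The Bcl-2 family and caspase list had 2 of 13 genes higher in spinal cord and none lower, with a median of 0.06, and none of 12 past 2-fold in brainstem/cerebellum, with a median of 0.01. The higher genes were Bmf at 2.05 and Bcl2l11, the gene of Bim, at 1.99, which like Puma and Noxa hold only the BH3 motif. Other genes of this kind stood at -0.02 for Bid, 0.06 for Bad and 0.02 for Hrk, and Bik was not above background on any array. The survival genes Mcl1 and Bcl2l2 stood at 0.88 and -0.94.

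Of the Gadd45 partners and effectors, 1 of 9 was higher in spinal cord, Ccnb1, the gene of cyclin B1, at 3.72, and the median was 0.02. Cdk1, the kinase partner of cyclin B1, was at least 7.85-fold higher there as a bound. The Ccnb1 level in wild-type spinal cord, -5.34, also lay near the lowest called above background on that array, -5.76. In brainstem/cerebellum none of 8 passed 2-fold, with a median of -0.13, and Ccnb1 was at least 3.61-fold higher as a bound. Pcna stood at 0.75 in spinal cord, the p38 activator gene Map2k6 at -0.96 and the JNK2 gene Mapk9 at -0.80, with 0.09 at its other probe. Of the 4 other genes named for growth arrest and DNA damage or for the same stress response, 2 were higher in spinal cord, Atf3 at 3.67 and Ppp1r15a at 1.57, with a median of 1.23. Ddit3 and Ddit4 stood at 0.88 and 0.60. In brainstem/cerebellum Atf3 was the 1 of 4 that passed 2-fold, at 1.89, and the median was 0.15.

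**Figure D4:**
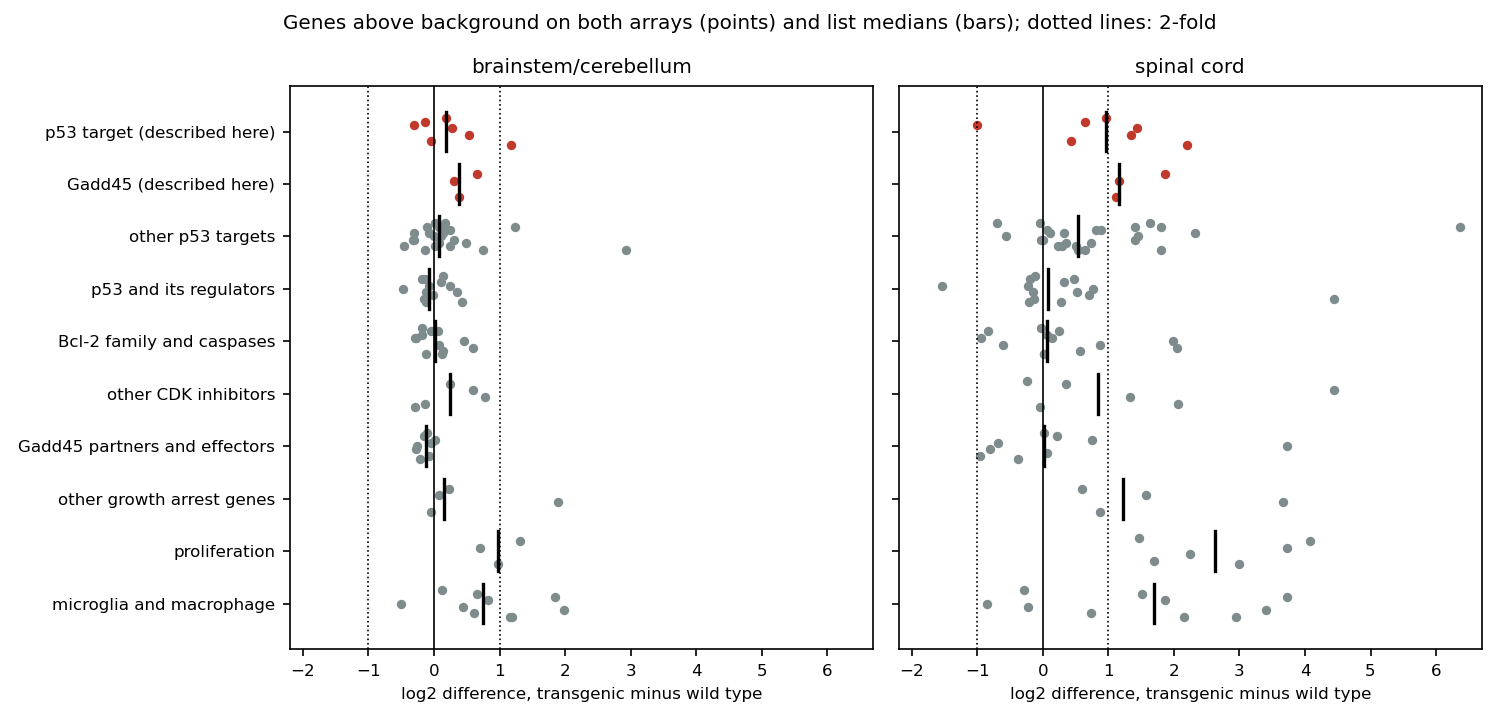
Log2 differences, transgenic minus wild type (x axis), of genes above background on both arrays, by list, in brainstem/cerebellum and spinal cord. Points are genes (red for those described here), black bars are list medians and dotted lines mark 2-fold. In spinal cord the medians are 0.97 for the p53 targets described here, 1.16 for the Gadd45 genes, 2.62 for proliferation and 1.69 for microglia and macrophage markers.

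Markers of several cell types also differed between the genotypes. Of 10 microglia and macrophage markers, 6 passed 2-fold upward in transgenic spinal cord and 4 in transgenic brainstem/cerebellum, with medians of 1.69 and 0.74. Their summed level, on the linear scale in units of the 75th percentile, was 86 in transgenic and 52.2 in wild-type brainstem/cerebellum, and 255 in transgenic and 85.5 in wild-type spinal cord, and no marker was below background on any array. In spinal cord P2ry12 stood at -0.23, Itgam at -0.28 and Ptprc at -0.85, though other Ptprc probes stood at 1.97 to 2.5. Csf1r, counted as higher there at 1.52, stood at 0.25 at its other probe. All 6 proliferation markers measured on both spinal cord arrays were higher, with a median of 2.62, and Aurkb and Cdk1, not above background on the wild-type one, were at least 4.36-fold and 7.85-fold higher as bounds. In brainstem/cerebellum 1 of 3 was higher, with a median of 0.97, and Aurkb, Ccnb1, Cdk1, Mki67 and Top2a were not above background on the wild-type array. As bounds, Mki67 was at least 8.8-fold, Top2a 6.9-fold and Ccnb1 3.61-fold higher in transgenic brainstem/cerebellum, and Cdk1 and Aurkb did not pass 2-fold. The summed level of the proliferation markers was 1.56 in transgenic and 0.621 in wild-type brainstem/cerebellum, and 4.51 in transgenic and 0.984 in wild-type spinal cord.

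Oligodendrocyte precursor markers had 3 of 5 genes higher in spinal cord, with a median of 1.08, and none of 5 in brainstem/cerebellum. In spinal cord Cspg4 stood at 2.36 and Pdgfra at 1.08, but their other probes stood at 0.35 and 0.07. Gpr17 stood at 1.45, while Olig1 and Olig2 went the other way at -0.19 and -0.67. Astrocyte markers had 1 of 6 higher and 1 lower in spinal cord and 2 of 6 higher in brainstem/cerebellum. No other probe of these genes passed 2-fold. Gja1 stood at -1.81 in spinal cord, with other probes at -0.43 and -0.41, and at 1.95 in brainstem/cerebellum, with others between -0.28 and 0.5. Gfap stood at 1.08 in spinal cord and 1.43 in brainstem/cerebellum, against 0.4 and 0.81 at its other probe. Mature oligodendrocyte markers had none of 6 past 2-fold in either tissue, and meningeal fibroblast markers had 2 of 5 higher in spinal cord and 1 of 5 in brainstem/cerebellum. Neuron markers had 2 of 6 lower in spinal cord, with a median of -0.65 and a summed level of 187 in transgenic and 375 in wild-type spinal cord. The lower ones were Nefm at -1.35, with -1.24 at its other probe, and Nefl at -1.15, with -0.58 at its other probe. Snap25, not counted as lower at -0.70, had other probes between -1.67 and -0.28 in spinal cord. Schwann cell markers had 2 of 4 lower there and skeletal muscle markers 2 of 4, with Ckm at least 2.16-fold lower as a bound, while endothelial markers had none of 5 past 2-fold in either tissue. Choroid plexus markers had 1 of 3 lower in spinal cord, where Otx2 and Ttr were not above background, and none of 5 past 2-fold in brainstem/cerebellum. Of 7 lymphocyte markers, Cd79a and Cd8a were not above background on any array, and of the 3 measured on both spinal cord arrays Cd4 was lower, at -1.80. As bounds, Cd3g and Ms4a1 were at least 2.62-fold and 2.69-fold higher in transgenic spinal cord, above background there alone. None of the 4 neutrophil markers measured in spinal cord and none of the 3 in brainstem/cerebellum passed 2-fold, while Ly6g was at least 3.33-fold lower in transgenic spinal cord as a bound. In these bulk samples fewer cells of a type and less RNA per cell cannot be told apart, and the part of any cell type in the differences of the 10 genes was not tested.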

How the data were processed

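Total RNA of each sample was labelled with Cy3 and hybridised to 1 Agilent array in 1 colour, per the labels. The deposited scanner output gives linear intensities per spot from Agilent Feature Extraction, version 10.7.1.1 per the file headers and 9.5.1.1 per the submitters' processing notes. Per the file headers, the software subtracted background and detrended each array, and nothing was scaled between arrays. The authors' series table also holds intensities, with the same median of 30.4 in each column. It correlated with a quantile normalization of the processed signal at a Pearson r of 0.99998 over probes and served as an alternative.

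Levels were log2 processed signals, from which the 75th percentile of the array was subtracted, taken over spots that were neither controls nor outliers. That percentile was a signal of 458 in transgenic against 436.8 in wild-type brainstem/cerebellum, and 409.5 in transgenic against 678.2 in wild-type spinal cord. Spots of a probe were averaged. Of 56605 probes, 32994 were named by RefSeq accession (GRCm38.p6), 10224 by symbol, 520 by synonym and 2574 by the file's symbol alone, and 10293 were unnamed. The probe with the highest mean stood for a gene. Counts at 2-fold took genes whose probe was well above background in both samples of a comparison. A difference with 1 array below background is a bound against the lowest level called above background there, or the dim probe's level if higher. The counting was tested on simulated data.

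The genes, the lists and the alternatives were chosen with earlier results of these data known. Named genes were all 10 genes, up to 4 genes per pathway list with the largest difference, and the 5 genes nearest to Cdkn1a in profile. Outside this rule, Trp53, Trp63, Trp53bp1, Atr, Gtse1, Cdk1, Bid, Bad, Hrk, Bik and single cell type and tissue markers were also named. Alternatives were median, quantile and spike-in scaling, normexp with an offset of 50 (limma 3.58.1), the authors' values, 2 other detection filters, the mean over a gene's probes, and thresholds of 1.5-fold and 3-fold. Precision is limited by having 1 array per group. Python 3.11.15 and R 4.3.3 were used.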

Additional observations from a re-analysis of the deposited data

Results flagged for a closer look

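Mdm2 and Bax had genotype differences of opposite sign in the 2 tissues. Mdm2 differed by -0.14 in brainstem/cerebellum and by 0.64 in spinal cord, and Bax by -0.04 and 0.43. The difference between tissues was not tested. With the mean of its probes, Mdm2 stood at 0.11 in brainstem/cerebellum. Bax stood at 0.01 to 0.03 there with quantile normalization, normexp correction, spike-in scaling and the authors' values.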

How the results depend on the processing

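No paired analysis was possible because each group has 1 array, and no replicate could be left out. Of the 20 differences between genotypes, 10 genes in 2 tissues, 18 kept their sign under the 6 alternatives that give a difference. The exceptions were Mdm2 and Bax in brainstem/cerebellum. Of 120 recomputed values, 84 moved by no more than the technical SD and 36 by more. For members at least 2-fold higher in transgenic brainstem/cerebellum, the count was 0 with the mean of probes (2.62% of all genes) and at 3-fold (0.932%), and 2 at 1.5-fold (6.21%), against 1 as reported (2.64%). Cdkn1a then stood at 0.87 with the mean of its probes. In transgenic spinal cord the count of higher members was 3 with spike-in scaling (5.1% of all genes) and 2 at 3-fold (4.18%), against 6 (8.48%). It was 7 with quantile normalization (8.44%) and the authors' values (8.61%), and 5 with the mean of probes (8.03%). That of lower members was 0 with quantile normalization (6.68%), normexp correction (3.15%) and the authors' values (6.44%) and at 3-fold (1.73%), against 1 (6.42%). For spinal cord over brainstem/cerebellum the count of higher members was 2 with spike-in scaling (5.98%), 8 at 1.5-fold (18.7%) and 0 at 3-fold (4.06%) in transgenic mice, against 4 (10%). In wild-type mice it was 2 at 1.5-fold, near the 15.6% of all genes, against 0 (6.58%).

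Over all genes, spike-in scaling in spinal cord gave 880 higher and 2887 lower genes, against 1462 and 1107, so 23.4% of calls were higher against 56.9%. For the tissues of transgenic mice it gave 1019 and 2132, against 1708 and 1064, or 32.3% against 61.6%, and for those of wild-type mice 70.8% against 60.2%. The spike-in probes differed by -0.18 to 0.67 in spinal cord. Median scaling moved the median of all genes in brainstem/cerebellum to -0.24 and the share of higher calls to 75.9%, against 89.4%, and that share to 49.8% for the tissues of wild-type mice. Lower genes in brainstem/cerebellum were then 103, and 87 with quantile normalization, 85 with the authors' values and 81 with the mean of probes, against 53. Normexp correction gave 189 and 14 genes in brainstem/cerebellum, against 448 and 53, and 922 and 543 in spinal cord. It gave 1033 and 686 for the tissues of transgenic and 500 and 422 for those of wild-type mice, against 1113 and 735. Without a filter, 1550 and 728 genes passed in brainstem/cerebellum, or 68% higher, and 2626 and 2437 in spinal cord. For the tissues this gave 2981 and 2151 in transgenic and 2680 and 1564 in wild-type mice. The cause of these moves was not tested. Dim probes limit what can be said of the upstream and middle Cdkn1a probes.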
